A study of Homo sapiens with 5 samples.

Results

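The keratin genes considered here were the 55 protein-coding genes of GENCODE release 44 on chromosomes 12 and 17 whose symbol is KRT followed by digits and an optional letter, out of 19663 protein-coding genes. Of these, 27 lay on chromosome 12 (26 type II genes and KRT18, which is type I by sequence) and 28 type I genes lay on chromosome 17. Their open chromatin was read from ATAC-seq of MCF10A, an immortalized, non-tumorigenic cell line from human mammary epithelium, grown without any further treatment in medium with insulin, hydrocortisone, cholera toxin, epidermal growth factor and horse serum. ATAC-seq uses the Tn5 transposase, which cuts and tags DNA where chromatin is open. The series held 5 replicate libraries of this single group, and the authors pooled their reads before they called hotspots, which are regions with more reads than the local background. The list therefore held 1 score for each of 181723 hotspots and no value for a single library. No spread between replicates and no test between groups could be had, the depth behind each hotspot was unknown, and every result below is a description of the pooled list. Intervals given with shares are 95% Wilson intervals, which cover counting error only.

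Keratins are the intermediate filament proteins of epithelial cells. A filament is built from pairs of a type I and a type II protein, and the partners are typically made together in a given epithelium. KRT8 and KRT18 are the pair of simple, single-layered epithelia, KRT5 and KRT14 mark the basal layer of stratified epithelia and the basal cells of the mammary gland, and KRT6 with KRT16 or KRT17 are made in activated, wounded or proliferating epidermis. KRT1 and KRT10 belong to the suprabasal epidermis, KRT4 and KRT13 to mucosa, and a large group of type I and type II genes is used mainly in hair and nail. The filaments are anchored at desmosomes and hemidesmosomes by plakins and related proteins.

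A promoter hotspot, meaning a hotspot that overlapped 1000 bp on either side of any transcription start site (TSS) of a protein-coding transcript, was found at 18 of the 55 keratin genes (32.7%, 21.8% to 45.9%). Over all protein-coding genes the share was 74.9%, or 14733 of 19663. With the TSS of the Ensembl canonical transcript alone, 15 keratin genes had a hotspot within 1000 bp, against 70.6% of all genes. A hotspot lay over the canonical TSS itself at 8 keratin genes (14.5%, 7.56% to 26.2%), against 60.9% of all genes. Genes with several annotated TSSs have more chances to be counted, and 34 keratin genes had 1 TSS. Of those 34, 7 had a promoter hotspot (20.6%), against 53.9% of the 4812 protein-coding genes with 1 TSS, and among keratin genes with several TSSs it was 11 of 21 (52.4%), against 81.7% of 14851 genes.

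The 18 genes with a promoter hotspot were, from the highest score of their hotspots to the lowest, KRT8, KRT5, KRT81, KRT18, KRT15, KRT7, KRT17, KRT6A, KRT6C, KRT16, KRT78, KRT80, KRT23, KRT86, KRT73, KRT6B, KRT76 and KRT27. Scores in the whole list ran between 4.36 and 912 with a median of 5.81. Top promoter scores of the keratin genes ran between 4.86 at KRT27 and 32.4 at KRT8, with a median of 14.8, against a median of 20.7 over all genes with a promoter hotspot. Since each score came from a single pooled list, neighbours in this order cannot be told apart or ordered beyond the score itself.

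**Figure D1:**
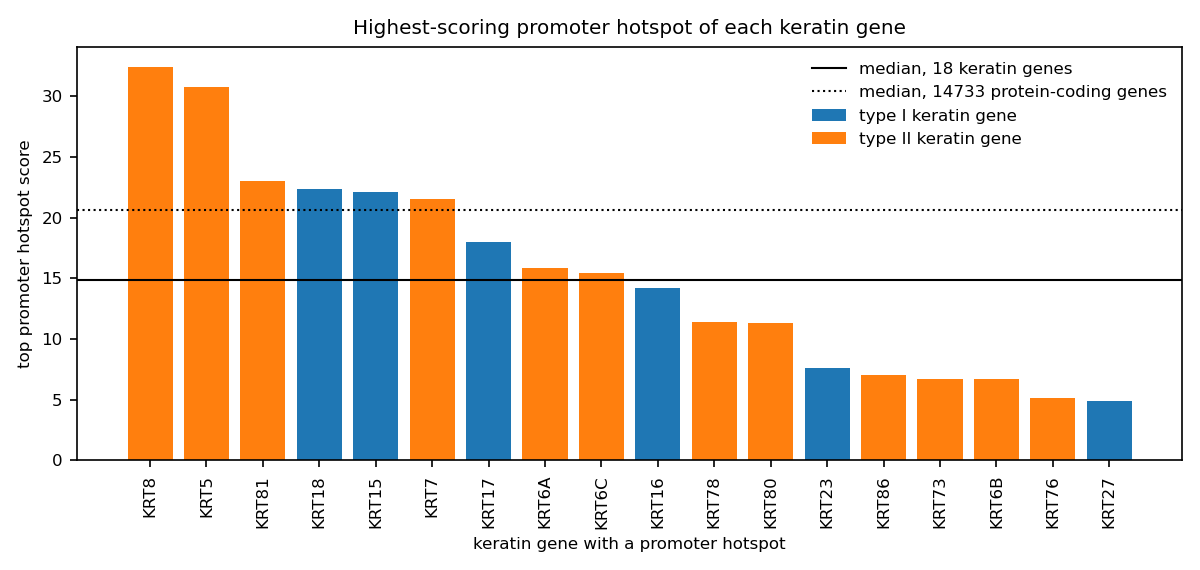
Highest hotspot score within 1000 bp of a TSS (vertical axis, score of the pooled list) for each of the 18 keratin genes that had such a hotspot, coloured by keratin type. The solid line is the median of these 18 genes (14.8) and the dotted line the median of the 14733 protein-coding genes with a promoter hotspot (20.7), and 6 keratin genes lie above the dotted line.

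Among the 7 keratin genes of simple epithelia, 5 had a promoter hotspot (71.4%, 35.9% to 91.8%), close to the 74.9% of all genes. KRT8 carried the strongest hotspot assigned to any keratin gene, at chr12:52904370-52905406, with a score of 32.4 that 97.5% of all hotspots fell below. It was 1037 bp wide and spanned -330 to 706 bp from the canonical TSS, where negative positions lie upstream. Set against the top promoter scores of all 14733 genes that have a promoter hotspot, it exceeded 78.7% of them. KRT8 has 10 annotated TSSs, and 7 hotspots lay within 1000 bp of at least 1 of them. KRT18, its filament partner, lies next to it on chromosome 12 and is transcribed in the other direction. Its hotspot at chr12:52948247-52950167 scored 22.4, was 1921 bp wide and covered the KRT18 TSS. Since an upstream TSS of KRT8 lies close by, the same hotspot also counted as a promoter hotspot of KRT8.

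KRT7, a simple-epithelium keratin found in ducts, had a hotspot of 1275 bp over its only protein-coding TSS at chr12:52232634-52233908, with a score of 21.6. KRT80, a type II keratin reported near desmosomal junctions, had 11.3 at chr12:52191931-52192525. KRT23, a type I gene of simple epithelia, had 7.58 at chr17:40936518-40936880, which was 766 bp downstream of its canonical TSS. KRT19, the smallest type I keratin and a marker of luminal mammary cells, and KRT20, the intestinal keratin, had no promoter hotspot. The closest hotspot to the canonical KRT19 TSS was 1868 bp away and scored 6.82, and the closest to KRT20 was 18930 bp away.

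In the basal and stratified group, 3 of 4 genes had a promoter hotspot (75%, 30.1% to 95.4%), close to the 74.9% of all genes. KRT5, the basal type II keratin, had the widest: 3217 bp at chr12:52519820-52523036, wider than 99.9% of all hotspots, with a score of 30.8. It spanned -2642 to 574 bp from the canonical TSS, so most of it lay upstream of the gene. A further promoter hotspot in an exon of the gene, at chr12:52518843-52519128, scored 9.14. The 150 bases before the KRT5 TSS (RefSeq, GRCh38.p14, chr12:52520395-52520544, minus strand) are shown first because they lie inside this hotspot and hold no TATAAA. The central 200 bases of the hotspot (hg38, chr12:52521328-52521527, plus strand), centred 1.03 kb upstream of the TSS, follow with the AP-1 match TGANTCA in capitals.
KRT5 promoter: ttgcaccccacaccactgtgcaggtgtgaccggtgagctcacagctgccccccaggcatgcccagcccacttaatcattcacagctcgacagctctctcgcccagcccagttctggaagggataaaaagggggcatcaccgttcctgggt
KRT5 hotspot: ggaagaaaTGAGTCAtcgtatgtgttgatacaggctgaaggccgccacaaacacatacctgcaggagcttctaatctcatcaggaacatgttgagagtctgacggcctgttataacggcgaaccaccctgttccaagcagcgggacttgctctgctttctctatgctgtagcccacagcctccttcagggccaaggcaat

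KRT15, a type I keratin of basal cells, had a hotspot of 1491 bp over its TSS at chr17:41518723-41520213 with a score of 22.1, and 4 promoter hotspots in all over its 4 TSSs. KRT17, a type I keratin of basal and activated epithelium, had 18.0 at chr17:41624580-41625214. That hotspot spanned -639 to -5 bp and so lay just upstream of the canonical TSS. KRT14, the type I partner of KRT5, had no hotspot within 1000 bp of its single TSS. The closest was 6777 bp away, at chr17:41579462-41580118, downstream of the gene, with a score of 13.5, and it was also the only hotspot assigned to KRT14. Of the 2001 bp around the KRT14 TSS, 92.6% of the 75-mers, stretches as long as the reads, occur once in hg38, and over the 300 bp promoter window all of them do.

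All 4 keratins of activated epithelium had a promoter hotspot (100%, 51.0% to 100%), an interval that holds the 74.9% of all genes. It was 2 of 4 (KRT6A and KRT16) when only hotspots with at least 50% unique 75-mers were counted, against 74.0% of all genes. KRT6A had 15.9 at chr12:52492691-52493769, a hotspot of 1079 bp over the TSS. KRT16, its type I partner, had 14.2 at chr17:41612043-41613321, a hotspot of 1279 bp over the TSS. KRT6C had 15.5 at chr12:52473355-52473708 and KRT6B had 6.68 at chr12:52451440-52451859. These last 2 were 354 and 420 bp wide and lay wholly downstream of the TSS, inside the genes, starting 97 and 287 bp from it.

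**Figure D2:**
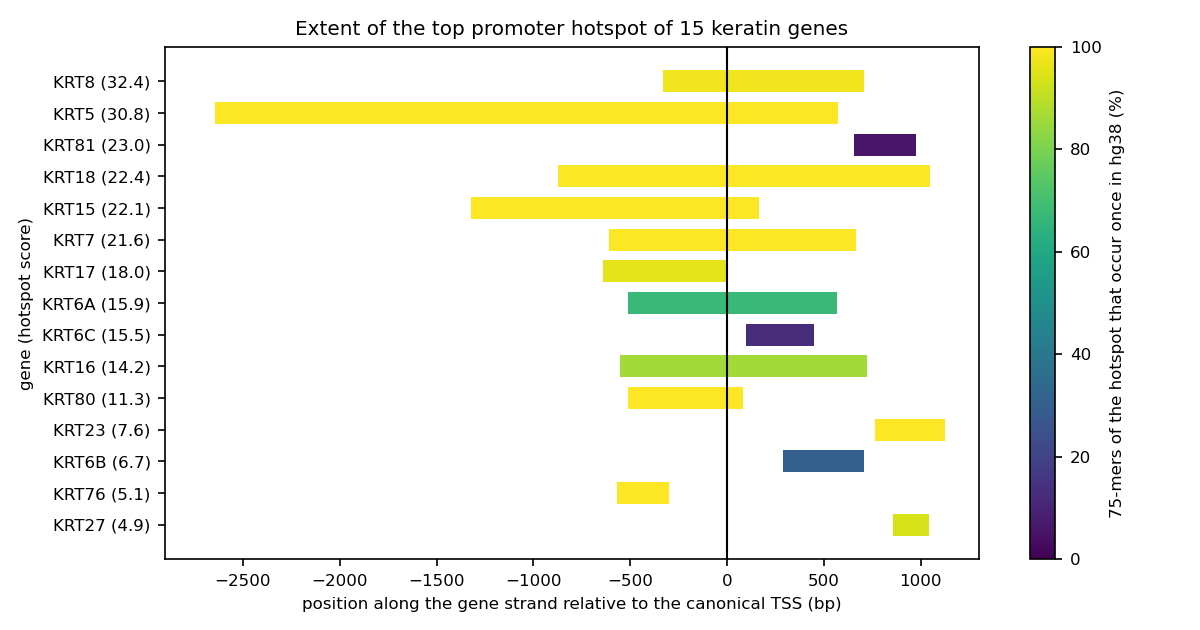
Extent of the highest-scoring promoter hotspot of the 15 keratin genes with a hotspot within 1000 bp of the canonical TSS, in bp along the gene strand (0 is the TSS, negative values lie upstream), with the score in brackets. Colour gives the share of 75-mers in the hotspot that occur once in hg38: 8 hotspots cross the TSS, 5 lie wholly downstream and 2 wholly upstream, and KRT81, KRT6C and KRT6B have the lowest shares of unique 75-mers.

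Promoter hotspots were fewer in the remaining groups, and the share of each lay below the 74.9% of all genes. Among the 7 suprabasal and cornified keratins, KRT78 scored 11.4 at chr12:52847593-52847967, near a TSS downstream of the canonical one, and KRT1, KRT2, KRT9, KRT10, KRT77 and KRT79 had none. Of the 6 keratins of mucosa and cornea, KRT76 had a hotspot of 270 bp scoring 5.11 at chr12:52777645-52777914, and KRT3, KRT4, KRT12, KRT13 and KRT24 had none. Of the 9 keratins of the hair follicle sheath, KRT73 had 6.70 at chr12:52614512-52614824, close to an internal TSS, and KRT27 had 4.86 at chr17:40781505-40781693. In the hair and nail group it was 2 of 17 (11.8%, 3.29% to 34.3%), KRT81 with 22.98 at chr12:52290557-52290878 and KRT86 with 6.995 at chr12:52248030-52248717. The KRT86 hotspot belonged to an upstream TSS: it spanned -26615 to -25928 bp from the canonical TSS and lay within an intron of KRT7. KRT222, which belongs to none of these groups, had none. No hotspot covered the canonical TSS of any gene in these groups.

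The 37 keratin genes without a promoter hotspot had their closest hotspot at a median of 4.18 kb from the canonical TSS and at most at 47.4 kb, at KRT40. For 6 of them it lay within 2000 bp: KRT74 (1141 bp), KRT85 (1208 bp), KRT79 (1581 bp), KRT13 (1752 bp), KRT77 (1862 bp) and KRT19 (1868 bp). The scores of these 6 nearby hotspots ran between 4.36 at KRT74 and 7.40 at KRT13, all below the median top promoter score of 14.8. KRT9, the keratin of palm and sole epidermis, had its closest hotspot at 4639 bp, with a score of 14.8.

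**Figure D3:**
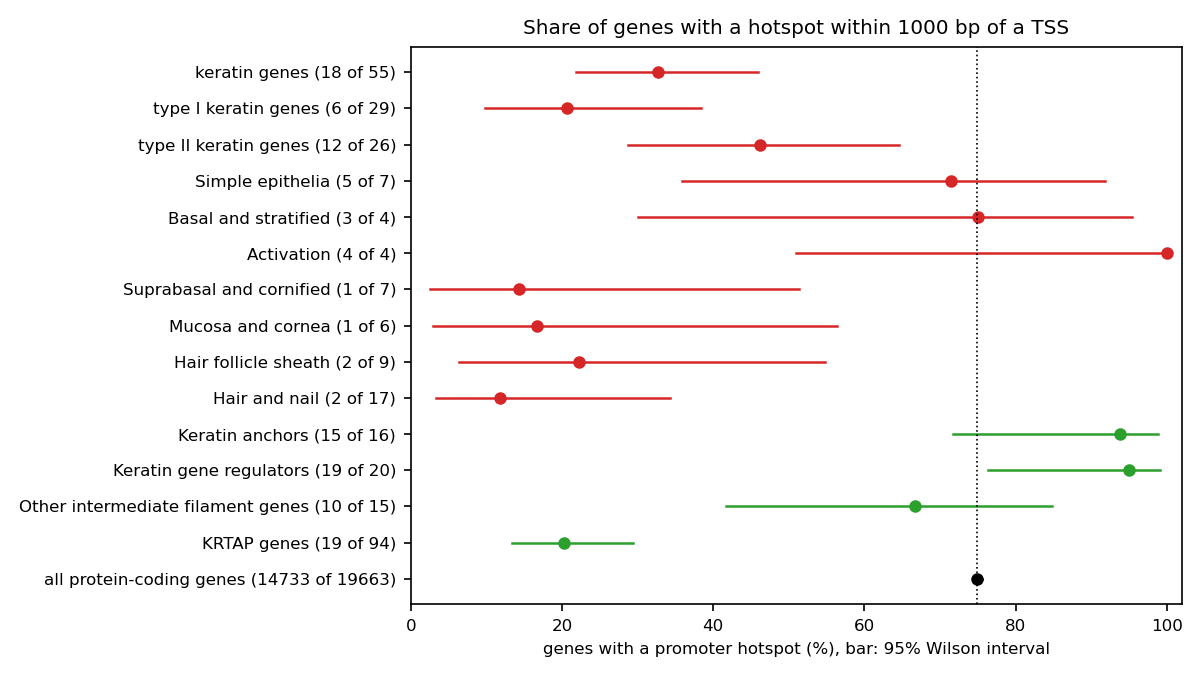
Share of genes with a promoter hotspot (horizontal axis, percent) in keratin groups (red), in gene lists related to keratins (green) and over all protein-coding genes (black), with 95% Wilson intervals and counts in brackets. The dotted line marks 74.9%, and the 4 groups of suprabasal, mucosal, hair sheath and hair keratins lie between 11.8% and 22.2%.

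By type, 12 of 26 type II genes (46.2%, 28.8% to 64.5%) and 6 of 29 type I genes (20.7%, 9.85% to 38.4%) had a promoter hotspot, and these intervals overlap. On chromosome 17 alone it was 5 of 28 type I genes (17.9%). With the canonical TSS alone it was 9 type II genes, without KRT86, KRT73 and KRT78, and 6 type I genes. With the limit on unique 75-mers used above it was also 9 type II genes, without KRT81, KRT6B and KRT6C, and 6 type I genes. Counts by type with both limits at once were not computed. With 500 bp on either side of the TSS it was 9 and 5, and with 2000 bp 16 and 8. Both types held genes at the high and the low end: type II top scores ran between 5.11 and 32.4 and type I top scores between 4.86 and 22.4.

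Among 10 listed pairs of filament partners, 3 had a promoter hotspot at both genes: KRT6A with 15.9 and KRT16 with 14.2, KRT8 with 32.4 and KRT18 with 22.4, and KRT6B with 6.68 and KRT17 with 18.0. Of all protein-coding genes, taken singly, 74.9% had a promoter hotspot, and no share over pairs of other genes was computed. The KRT6B hotspot held 30.3% unique 75-mers. With the limit on unique 75-mers used above KRT6B lost it, while KRT6A, KRT16, KRT8 and KRT18 kept a promoter hotspot. In KRT5 and KRT14 and in KRT7 and KRT19 only the type II gene had a promoter hotspot, with 30.8 and 21.6. In the other 5 pairs (KRT1 and KRT10, KRT2 and KRT10, KRT4 and KRT13, KRT3 and KRT12, KRT85 and KRT35) neither gene had one. Distances of the closest hotspot in these pairs ran between 1208 bp at KRT85 and 15469 bp at KRT35.

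Several of these genes have near-identical neighbours, and reads of 75 bases cannot always be placed. The share of 75-mers within 1000 bp of the canonical TSS that occur once in hg38 was 100% at 33 of 55 keratin genes (60%), against 76.9% of all genes. It was under 90% at 4 keratin genes: KRT81 (60.5%), KRT6C (68.7%), KRT6B (72.6%) and KRT6A (82.9%). All 4 had a promoter hotspot. Within the top promoter hotspot the share was 5.65% at KRT81, 12.1% at KRT6C, 30.3% at KRT6B and 67.3% at KRT6A. For KRT81, 761 of the 1927 75-mers recur at chr12:52301977-52302811 within KRT86, the neighbouring hair keratin gene. For KRT6B, 523 recur in KRT6C and 249 in KRT6A. Promoters of KRT6B and KRT6C were 88.8% identical over 300 bp, those of KRT6B and KRT6A 82.5%, against a median of 47.0% over all 1485 pairs of keratin promoters.

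The study's commands aligned reads with the default reporting of Bowtie2, which gives each read a single placement even where several fit, and show no filter on mapping quality. The part of reads from copies in the scores of KRT81, KRT6B and KRT6C was not tested. With hotspots kept only where at least 50% of their 75-mers were unique, these 3 genes lost their promoter hotspot and 15 keratin genes kept one, against 74.0% of all genes. Among genes with at least 90% unique windows, 14 of 51 keratin genes had a promoter hotspot (27.5%), against 76.7% of 18548 genes, and no keratin gene without a promoter hotspot was under 90%. KRT14 and KRT16 share stretches with each other and with KRT16 pseudogenes on chromosome 17, and KRT17 with KRT17 pseudogenes there. The windows of KRT16, KRT17 and KRT14 were 90.2%, 94.0% and 92.6% unique.

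Next to promoters, each hotspot was assigned to the gene with the nearest protein-coding TSS within 100 kb. In all, 174 hotspots were assigned to keratin genes, 117 on chromosome 12 and 57 on chromosome 17, and all 33 promoter hotspots were among them. Of the 174, 141 lay more than 1000 bp from the TSS, at a median of 6.14 kb and at most 52.2 kb. Midpoints of 27 fell in exons of keratin genes, 46 in introns and 101 outside keratin genes. Their scores ran between 4.36 and 32.4 with a median of 6.61, against 5.81 over all hotspots, and 107 (61.5%) scored above the median of the whole list.

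At least 1 hotspot was assigned to 46 of the 55 keratin genes, against 91.7% of all genes. The median was 2 hotspots per keratin gene, against 5 over all protein-coding genes. Assignment to the nearest TSS divides hotspots among neighbouring genes, and keratin genes lie close together. On chromosome 12, 27 of them share a cluster of 784 kb with 136 hotspots per Mb, against 57.8 over the chromosome. A low count per gene therefore does not mean few hotspots around it, and the part of gene spacing was not tested. Type II genes had a median of 3 and type I genes of 1. No hotspot was assigned to KRT71, KRT72, KRT222, KRT26, KRT39, KRT40, KRT33B, KRT38 and KRT35, of which 5 are hair and nail keratins. Of the 37 genes without a promoter hotspot, 28 had at least 1 assigned hotspot elsewhere. KRT80 had the most, 17, followed by KRT86 with 12, KRT77 and KRT17 with 10 each, KRT8 and KRT5 with 9 each, and KRT24, KRT16 and KRT78 with 7 each. KRT6A, KRT7, KRT73, KRT81 and KRT15 had 5 each.

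**Figure D4:**
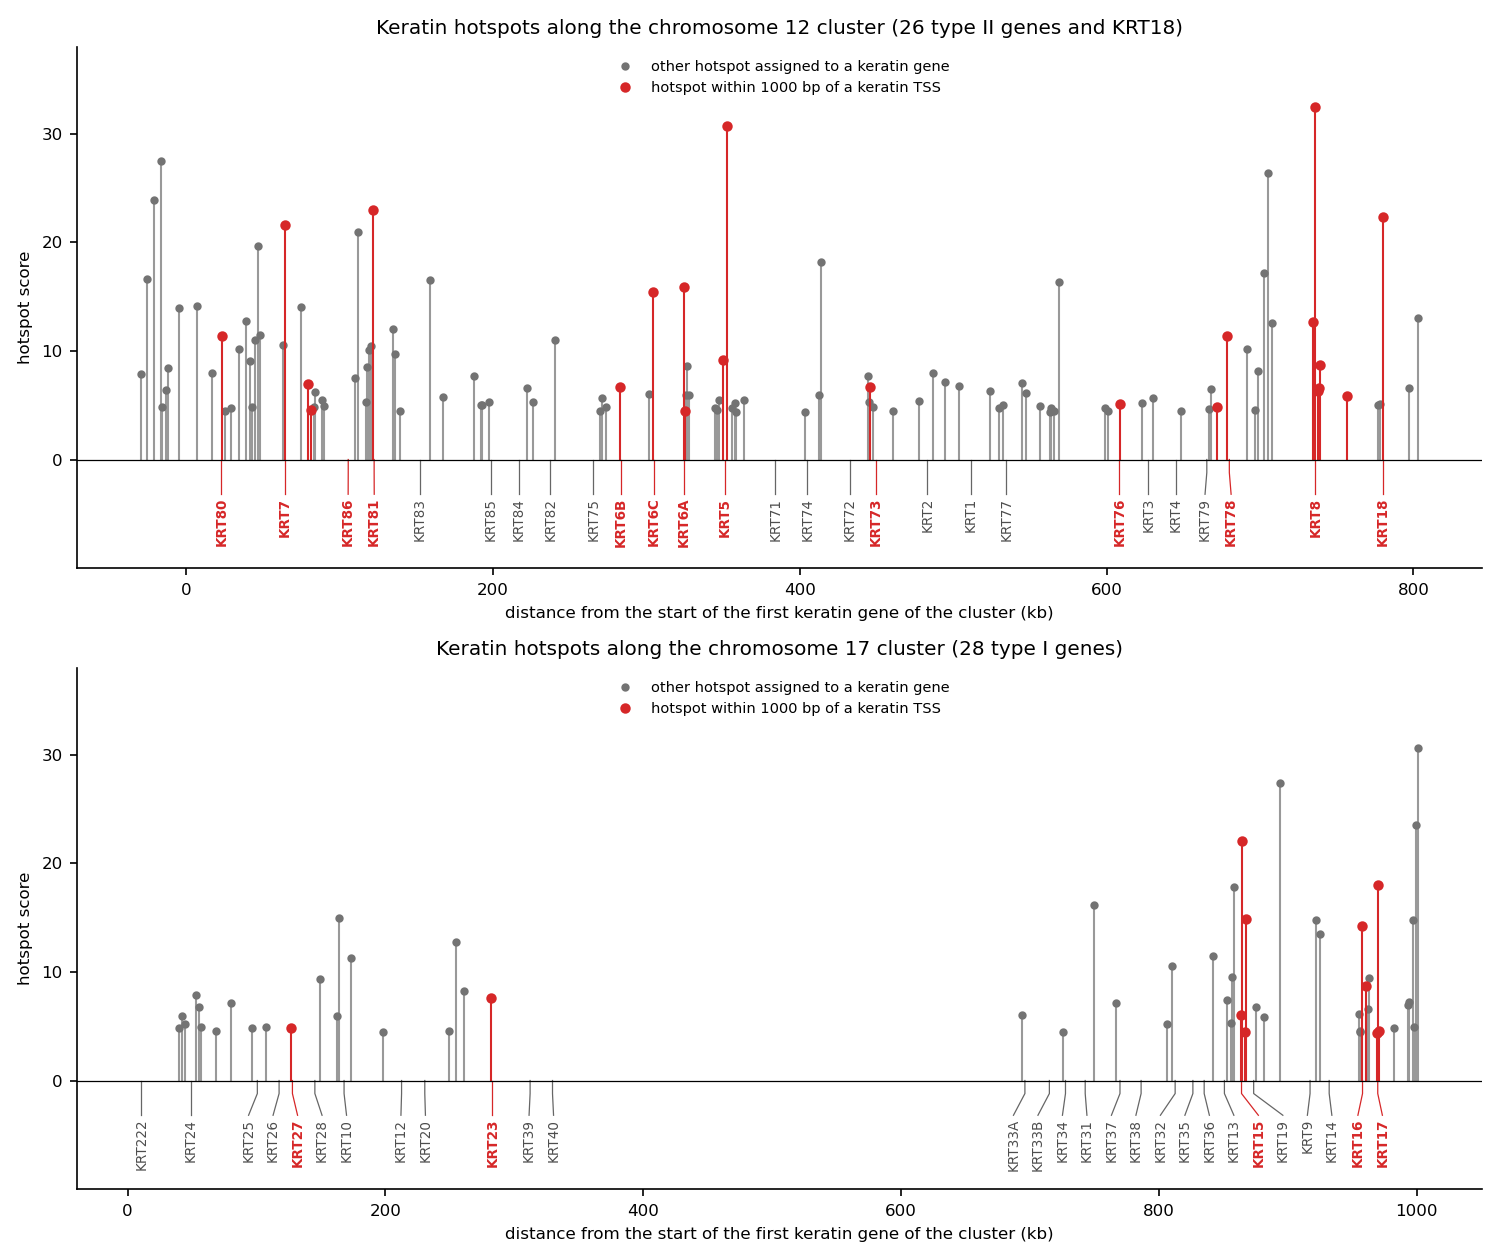
Hotspots assigned to keratin genes along both clusters: horizontal axis, distance in kb from the start of the first keratin gene of the cluster, and vertical axis, hotspot score. Red marks hotspots within 1000 bp of a keratin TSS and genes that have one, placed at their canonical TSS, and grey the rest. High scores gather at KRT80 to KRT81, KRT5, KRT78 to KRT18 and KRT13 to KRT17. They also lie outside the clusters, before KRT80 (up to 27.5) and beyond KRT17 (up to 30.6). Hotspots of the KRTAP genes in the chromosome 17 gap are not drawn.

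Of the 10 hotspots with the highest scores among the 174, 4 lay at a keratin TSS and 6 did not. The strongest of the distant hotspots lay 30.6 kb upstream of KRT17, at chr17:41655440-41656396, with a score of 30.6, above the 18.0 of the KRT17 promoter itself. A neighbour at chr17:41653899-41654581 scored 23.6. Both belonged to 7 hotspots upstream of KRT17, within chr17:41636637-41656396. Downstream of KRT80, 8 hotspots lay within chr12:52139482-52164313, with the highest at chr12:52152139-52152831 (27.5) and chr12:52147151-52149303 (23.9), both above the 11.3 of the KRT80 promoter. KRT19, which had no promoter hotspot, was the nearest coding gene to a hotspot of 2203 bp at chr17:41547410-41549612 with a score of 27.4, 19.1 kb upstream. Between KRT78 and KRT8, 6 hotspots lay at chr12:52860100-52876844, the strongest at chr12:52873651-52874901 with 26.4. Another 10 lay between the TSS of KRT80 and KRT7, with scores of 4.44 to 19.7. All 6 distant hotspots among the 10 strongest consisted of unique 75-mers only. Of the 4 at a keratin TSS, the KRT81 hotspot held 5.65% unique 75-mers, against 97.9% at KRT8, 99.5% at KRT18 and 100% at KRT5. Assignment goes by distance and does not show which gene a region acts on, and when noncoding genes and pseudogenes could also be nearest, 111 hotspots were left to the keratin genes. None of the 6 distant hotspots above then kept a keratin gene as nearest: the nearest TSS was that of the noncoding RNA LINC00592 for both KRT80 hotspots, of LINC00974 for the KRT19 hotspot, of the pseudogene RPL7P41 for the KRT78 hotspot and of an unnamed transcript for both KRT17 hotspots.

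The central 200 bases of 3 of these distant hotspots (hg38, plus strand) are shown since their scores exceed those of the promoters of the nearest coding genes. They lie at chr12:52152385-52152584 for KRT80, chr17:41655818-41656017 for KRT17 and chr12:52874176-52874375 for KRT78. Capitals mark matches to SP/KLF (GGGCGG), TFAP2 (GCCNNNGGC), RUNX (TGTGGT) and AP-1 (TGANTCA) on either strand, and neighbouring matches of SP/KLF and TFAP2 can overlap.
KRT80 hotspot: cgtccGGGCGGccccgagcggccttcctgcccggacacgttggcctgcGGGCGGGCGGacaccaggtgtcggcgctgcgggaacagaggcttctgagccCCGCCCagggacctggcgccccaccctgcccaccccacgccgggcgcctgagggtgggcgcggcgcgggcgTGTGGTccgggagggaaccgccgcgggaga
KRT17 hotspot: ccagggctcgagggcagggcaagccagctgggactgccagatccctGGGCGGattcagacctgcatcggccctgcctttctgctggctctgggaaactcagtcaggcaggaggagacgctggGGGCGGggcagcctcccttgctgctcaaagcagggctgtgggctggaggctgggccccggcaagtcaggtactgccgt
KRT78 hotspot: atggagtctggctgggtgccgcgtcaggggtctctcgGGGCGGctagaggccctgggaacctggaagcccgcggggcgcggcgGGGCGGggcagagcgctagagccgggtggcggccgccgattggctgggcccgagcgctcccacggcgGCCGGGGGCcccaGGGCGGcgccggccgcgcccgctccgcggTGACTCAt

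KRT77, a suprabasal type II keratin, had many assigned hotspots and none at its promoter. Of its 10 hotspots, 9 scored between 4.38 and 7.09, and the tenth, at chr12:52737730-52737977, scored 16.3 but held no unique 75-mer at all. KRT10 had 3 assigned hotspots, the strongest of 15.01 at chr17:40818715-40819224 in an exon at the far end of the gene, where it covered a TSS of the noncoding RNA KRT10-AS1. KRT1 had a single hotspot of 6.79 and KRT4 a single hotspot of 4.51. KRT31, a hair keratin, had a single hotspot too, of 16.1 and 6.36 kb upstream of its TSS.

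Hotspots were denser in the chromosome 12 cluster. Over the 784 kb between the outer ends of KRT80 and KRT18 there were 107 hotspots, 136 per Mb, which covered 6.63% of the bases, against 57.8 per Mb and 2.14% over chromosome 12 and 61.9 per Mb over the genome. Over the 970 kb between KRT222 and KRT17 there were 69, or 71.1 per Mb and 2.86% of the bases, against 85.2 per Mb and 3.63% over chromosome 17. These densities count hotspots of all scores. Of the 69, 43 (62.3%) scored above the median of the whole list, against 50.1% over chromosome 17. In the chromosome 12 cluster it was 60 of 107 (56.1%), against 50.6% over chromosome 12. Density was uneven within each span. It was 228 per Mb between KRT80 and KRT81, which also holds KRT7 and the hair keratin KRT86, 162 between KRT6B and KRT5, 148 between KRT78 and KRT18 and 170 between KRT13 and KRT17. It was 74.96 between KRT83 and KRT75, which holds the hair keratins KRT82 to KRT85, and 41.0 between KRT33A and KRT36, which holds type I hair keratins. The hair keratins KRT81 and KRT86 thus lay in the densest of these stretches. The longest stretch with no hotspot within either cluster was 108283 bp at chr17:40936881-41045163, which holds KRT39 and KRT40.

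Between KRT40 and KRT33A the chromosome 17 cluster holds 34 genes of keratin-associated proteins (KRTAP), which form the matrix around hair keratin filaments. That stretch had 58.5 hotspots per Mb, and its highest score, 73.5, belonged to a hotspot not assigned to any keratin gene. Of all 94 KRTAP genes, 19 had a promoter hotspot (20.2%, 13.3% to 29.4%), with top scores of 4.48 to 10.9. Genes of the listed keratin anchors had a promoter hotspot in 15 of 16 cases (93.8%, 71.7% to 98.9%), an interval that holds the 74.9% of all genes, with a median top score of 30.1. These included DSP (42.8), the desmosomal plakin, JUP (35.4), DST (34.2), another plakin, and ITGB4 (30.5). PKP1 was the exception, though 17 hotspots were assigned to it, against a median of 8 in this list. Among listed regulators of keratin genes it was 19 of 20 (95%, 76.4% to 99.1%), against 74.9% of all genes. Their median top score was 32.2, against 20.7 over all genes with a promoter hotspot. Scores included KLF5 (42.8), TEAD1 (46.9), TFAP2A (33.2) and GRHL2 (24.4), and the lowest was ZNF750 (5.70). TP63, the regulator of basal epithelium, was the exception, with 17 assigned hotspots against a median of 15 in this list. The lists were chosen with earlier results of these data known. Of 15 other intermediate filament genes, 10 had a promoter hotspot (66.7%, 41.7% to 84.8%, against 74.9% of all genes), with 18.4 at VIM, 23.6 at LMNA and 35.2 at LMNB1, while DES, NEFH, NES, SYNM and BFSP2 had none. Of 8 markers of other cell types, 2 had a promoter hotspot (COL1A1 and PDGFRB), against 74.9% of all genes. It was 6 of 8 basal mammary markers and 4 of 5 luminal markers, shares close to that of all genes, and 4 and 3 of these markers are keratins themselves. Without the keratins it was 3 of 4 basal markers (ITGB4, LAMB3 and CDH3, not TP63) and 2 of 2 luminal markers (ESR1 and GATA3), too few to tell basal from luminal.

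Sequence features of the promoters, which the choice of genes did not use, were then compared over 250 bp before to 50 bp after the canonical TSS. A TATA box, meaning TATAAA on the gene strand that starts 20 to 40 bp before the TSS, was present in 20 of 55 keratin promoters (36.4%, 24.9% to 49.6%), against 3.997% of all protein-coding genes. All 20 started between 27 and 32 bp before the TSS, although the search allowed a wider range. Type I genes held 17 of them, of 29 (58.6%, 40.7% to 74.5%), and type II genes 3 of 26 (11.5%, 4.003% to 28.98%), and these intervals do not overlap. Some type I promoters are near copies of each other (KRT37 and KRT38 89.7% identical, KRT33A and KRT31 72.4%), so the genes are not independent, which the intervals ignore. Only the exact TATAAA was searched. Near variants, such as the ataaaa in the KRT5 promoter shown above, counted as no TATA box, and no looser motif was tried. The 3 type II genes were KRT71, KRT76 and KRT3. Of 11 type I hair and nail genes, 8 had a TATA box. Among keratin genes with a TATA box, 4 of 20 had a promoter hotspot (20%: KRT76, KRT27, KRT16 and KRT17), against 48.2% of all 786 genes with a TATA box. Without a TATA box it was 14 of 35 keratin genes (40%), against 76.04% of all genes without a TATA box.

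The promoters below give 150 bases before the TSS (RefSeq, GRCh38.p14, minus strand for each), with TATAAA and the reverse complement of GGGCGG in capitals. KRT76, the only type II gene of these with a promoter hotspot and a TATA box, is set beside KRT3, which had no promoter hotspot. KRT10 of the epidermis and the pair KRT31 and KRT33A and the pair KRT37 and KRT38, type I hair keratins, had no promoter hotspot. The last pair was 89.7% identical over 300 bp, the highest of all 1485 pairs, and KRT31 and KRT33A were 72.4% identical.
KRT76 promoter: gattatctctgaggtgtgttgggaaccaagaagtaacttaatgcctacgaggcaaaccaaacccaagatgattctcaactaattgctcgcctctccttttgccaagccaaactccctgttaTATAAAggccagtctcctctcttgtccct
KRT3 promoter: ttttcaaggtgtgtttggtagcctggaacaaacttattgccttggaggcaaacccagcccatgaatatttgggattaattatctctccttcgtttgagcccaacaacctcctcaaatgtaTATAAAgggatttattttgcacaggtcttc
KRT10 promoter: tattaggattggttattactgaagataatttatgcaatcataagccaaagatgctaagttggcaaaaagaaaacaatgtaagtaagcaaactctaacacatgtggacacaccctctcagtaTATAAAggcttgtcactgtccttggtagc
KRT31 promoter: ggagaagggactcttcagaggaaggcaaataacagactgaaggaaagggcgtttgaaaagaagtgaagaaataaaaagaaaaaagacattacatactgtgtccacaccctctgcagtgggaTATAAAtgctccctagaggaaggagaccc
KRT33A promoter: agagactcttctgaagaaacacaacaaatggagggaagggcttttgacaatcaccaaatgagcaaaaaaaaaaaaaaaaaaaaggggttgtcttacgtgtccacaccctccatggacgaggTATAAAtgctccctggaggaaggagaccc
KRT37 promoter: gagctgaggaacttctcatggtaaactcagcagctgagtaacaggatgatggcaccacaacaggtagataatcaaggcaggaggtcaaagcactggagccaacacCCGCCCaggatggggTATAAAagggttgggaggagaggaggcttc
KRT38 promoter: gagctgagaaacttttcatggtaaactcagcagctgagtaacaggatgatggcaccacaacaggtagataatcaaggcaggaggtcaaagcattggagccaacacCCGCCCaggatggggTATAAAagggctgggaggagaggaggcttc

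Their coordinates are chr12:52777346-52777495 for KRT76, chr12:52796118-52796267 for KRT3, chr17:40822615-40822764 for KRT10, chr17:41397609-41397758 for KRT31, chr17:41350829-41350978 for KRT33A, chr17:41424586-41424735 for KRT37 and chr17:41440984-41441133 for KRT38. The TATAAA started 29 bp before the TSS in KRT76, KRT10, KRT31 and KRT33A and 30 bp before it in KRT3, KRT37 and KRT38.

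Keratin promoters were poorer in GC and in CpG than most promoters. Their median GC content was 48.3%, against 63.7% over all promoters, and their median number of CpG dinucleotides was 3, against 23. KRT18 held 36 CpG and KRT7 held 29, the highest counts among the 55, and both had a hotspot over the TSS. KRT19 held 18 CpG and KRT14 held 11 without a promoter hotspot. Split at 10 CpG, 15 of 49 CpG-poor keratin genes had a promoter hotspot (30.6%, 19.5% to 44.5%), against 39.9% of 4959 CpG-poor genes, so among CpG-poor promoters the interval of the keratin genes holds the share of all genes. With 10 or more CpG it was 3 of 6 keratin genes, against 86.7% of 14704 genes.

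The SP/KLF motif GGGCGG, bound by the SP1 and KLF factors, was matched in 13 of 55 keratin promoters (23.6%, 14.4% to 36.3%), against 61.6% of all promoters, and TFAP2 (GCCNNNGGC) in 9 (16.4%), against 29.7%. Both motifs consist mostly of G and C, and keratin promoters had a lower median GC content (48.3%, against 63.7%). No share over promoters of like composition was computed, so the part of base composition was not tested. AP-1 (TGANTCA) was matched in 5 (9.09%, 3.95% to 19.6%), against 5.44%. Those 5 were KRT13, KRT14, KRT15, KRT16 and KRT17, all type I genes at the KRT17 end of the chromosome 17 cluster, of which KRT13 and KRT14 had no promoter hotspot. TEAD (GGAATG) was matched in 16.4%, against 11.3%.

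In the central 200 bp of hotspots the shares lay closer together. The keratin interval held the share of all hotspots for AP-1, SP/KLF, RUNX and C/EBP, and its lower end lay just above that share for TEAD. AP-1 was matched in 21 of 174 keratin-assigned hotspots (12.1%, 8.03% to 17.7%), against 11.3% of all hotspots, and SP/KLF in 16.1% (11.4% to 22.3%), against 13.3%. TEAD was matched in 16.7% (11.9% to 22.9%), against 11.7%, and RUNX (TGTGGT) in 11.5% (7.57% to 17.1%), against 15.4%. C/EBP (TTGCNNAA) was matched in 3.45% (1.59% to 7.32%), against 6.86%, and EHF/ELF (AGGAAGT) in 4.598%, against 4.647%. TFAP2 was matched in 11.5%, against 9.24%. GRHL (AACCNGTT) was matched in 1.15% of both. Matches to the longer CTCF, p53 family and glucocorticoid receptor motifs were found in 4, 1 and 1 of the 174, which is 2.30%, 0.575% and 0.575%, against 1.02%, 0.200% and 0.144% of all hotspots. The median GC content of the 174 windows was 57.5%, against 53%.

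**Figure D5:**
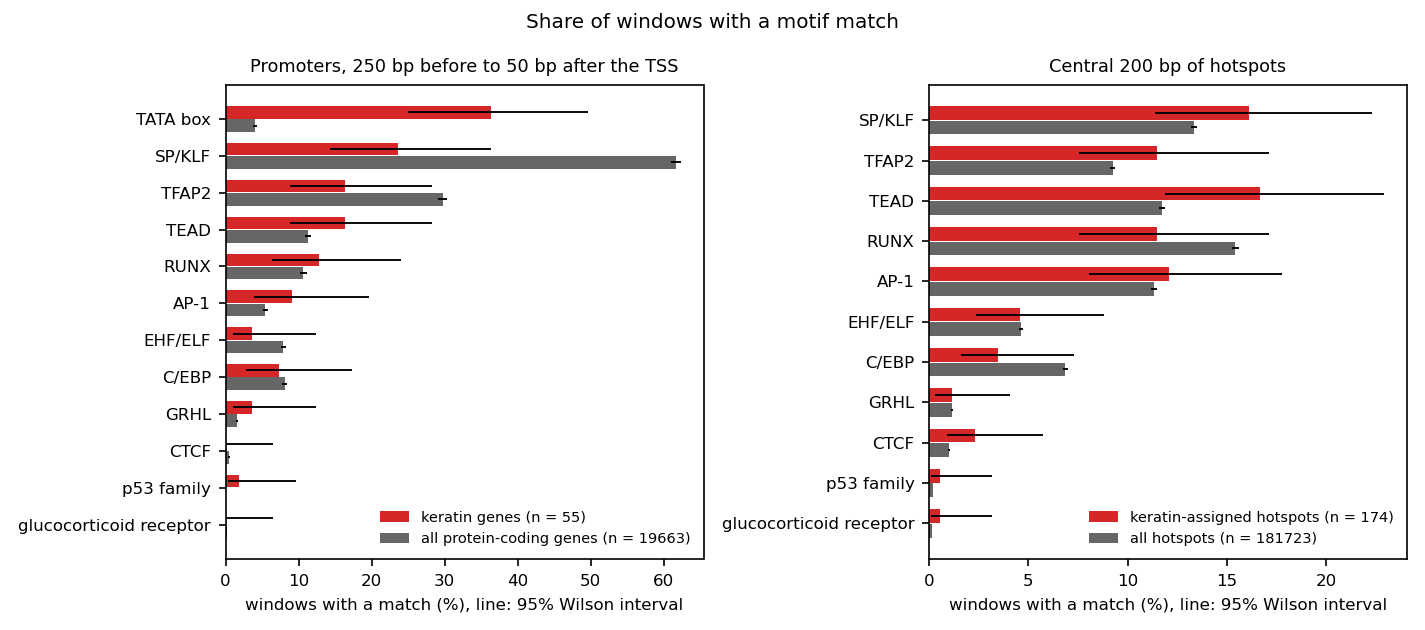
Share of windows with a motif match (horizontal axis, percent, with 95% Wilson intervals as lines) in keratin promoters (red) above all promoters (grey) on the left, and in keratin-assigned hotspots (red) above all hotspots (grey) on the right. TATA boxes stand at 36.4% against 3.997% and SP/KLF matches at 23.6% against 61.6% of promoters, while shares in hotspots lie close together.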

How the data were processed

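ATAC-seq libraries of MCF10A (5 replicates, 1 group) were sequenced as paired reads and, per the labels and the study's methods, aligned to hg38 with Bowtie2, pooled, cleared of duplicates and called with Hotspot at a false discovery rate of 0.01, with a tag length of 75 and a background window of 50 kb. The deposited list gives a score per hotspot, made by the authors from pooled reads; its definition and the depth are not given in the sources used here. The study's commands show Bowtie2 at its default reporting and neither a mapping-quality filter nor a Tn5 shift, and Hotspot was given a mappability file and satellite regions to leave out.

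TSSs were the 78471 starts of protein-coding transcripts in GENCODE release 44, which has the same build. Promoter hotspots, nearest genes, motif matches, CpG counts and 75-mer counts were computed with Python 3.11.15, numpy 2.4.6, pandas 2.3.3, numba 0.67.0 and biopython 1.88, and both distance rules, motif search and 75-mer counts were tested on made-up or directly counted data. Of the 55 genes, 34 matched RefSeq's promoter table by symbol. Every keratin gene could be named, in full those with a promoter hotspot, with the most assigned hotspots, in partner pairs or nearest to the strongest hotspots. Members and lists were chosen with earlier results of these data known. Window, TSS set, distance limit, score limit and motif width were varied.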

Additional observations from a re-analysis of the deposited data

How the results depend on the processing

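Of 48 values under other settings, 32 stayed within 1.5 times the value reported (counts, medians and densities) or within its 95% interval (shares). The number of keratin genes with a promoter hotspot was 14 with 500 bp and 24 with 2000 bp on either side of the TSS. The share of all genes with a promoter hotspot, whose interval is narrow, was 71.9% with 500 bp, 78.8% with 2000 bp, 73.9% with the hotspot midpoint in the window, 70.6% with the canonical TSS, 67.3% with hotspots above the median score and, in 2 settings chosen after seeing the data, 77.5% with TSSs of all transcripts and 74.0% with hotspots of which at least 50% of the 75-mers are unique. Hotspots assigned to keratin genes numbered 111, with a median of 1 per gene, when all GENCODE genes could be nearest, and 107, with a median of 1, above the median score. With hotspots above the median score, density was 76.5 per Mb in the type II cluster of chromosome 12 and 44.3 per Mb in the type I cluster of chromosome 17. At this score limit the chromosome 12 cluster held 60 hotspots in 784 kb, against 3890 in the 133275 kb of chromosome 12. The chromosome 17 cluster held 43 in 970 kb, against 3537 in the 83257 kb of chromosome 17. Densities of the whole chromosomes at this limit were not computed. The AP-1 share over the central 400 bp was 21.8% of keratin-assigned hotspots, against 17.3% of all hotspots. Above the median score it was 14.0% of keratin-assigned hotspots, against 13.6% of all hotspots. The settings differ in the hotspots, TSSs or bases that are counted, and the reason for each move was not tested.

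No paired analysis was possible because the libraries were pooled into a single list, and for the same reason no library was left out. The list gives no depth, so a keratin gene without a hotspot is one where none passed the threshold at this unknown depth, and groups of 4 to 9 genes have wide intervals.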
